A study of Mus musculus with 12 samples.

Results

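Differentiative progenitors (DP) of the mouse cortex at embryonic day 14.5 are the dividing cells that go on to generate neurons, and here their landscape of 5-methylcytosine (5mC) was set against that of 5-hydroxymethylcytosine (5hmC). The deposited tables gave the DP level of 5mC at 55077 peaks and of 5hmC at 47473 peaks, 102550 peaks in all, and every one of them was used. The study sorted cells from embryos that were double heterozygous for the reporters Btg2RFP and Tubb3GFP. Proliferative progenitors (PP) were negative for both reporters (Btg2-/Tubb3-), DP carried RFP but no GFP (Btg2+/Tubb3-), and neurons (N) carried GFP with or without RFP. RFP thus stood for expression of Btg2 and GFP for that of Tubb3, so each group is what a reporter gate selects and not a lineage. Of 12 samples 4 are from DP, namely an immunoprecipitated sample and an input without antibody for each mark, and the labels do not separate the biological replicates behind them. MeDIP and hMeDIP pull down sheared DNA with an antibody against 5mC or 5hmC, and the barcoded DNA of PP, DP and N was mixed before each pull-down.

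Each peak carries 1 mean log2 level per cell type that the authors averaged over replicates, so no spread between replicates and no test can be given, and all that follows is a description. The number of reads behind a level is unknown from the tables. The antibodies and kits differed between the marks, so a 5mC level and a 5hmC level do not share a scale. Each level was therefore turned into a percentile, the percentage of peaks of the same mark that lay below it in the same cell type. A peak was called high when it was in the top 10% of its mark, and distances are in bp from the transcription start site (TSS) of the nearest gene, negative when upstream. Levels of PP, DP and N are given at 1 merged peak list per mark, which does not say in which cell type a peak was called, and a region without a listed peak has no known level.

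In mammals 5mC is laid down mainly where C is followed by G, and the DNA methyltransferases copy and set the mark. The Tet enzymes oxidise 5mC to 5hmC, which is both a step towards the unmodified base and a lasting mark that is abundant in the brain. Dense clusters of CG at gene starts usually carry little of either mark, and 5hmC is known to gather in gene bodies and enhancers.

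Promoters with a listed peak show what both antibodies recovered. In a RefSeq table of GRCm38.p6, the assembly called mm10, 32619 windows reach from 250 bases before a gene start to 50 bases after it. A 5mC peak overlapped 364 of them (1.12%), a 5hmC peak overlapped 413 (1.27%), and both marks met in 62. The 5 stretches here are the bases upstream of a start, from 5′ to 3′ on the strand of the gene, and capitals mark each CG. They were chosen after the values were seen, as the windows with the most extreme percentiles among those in which each peak covered at least 50 of the shown bases.
Mtmr2: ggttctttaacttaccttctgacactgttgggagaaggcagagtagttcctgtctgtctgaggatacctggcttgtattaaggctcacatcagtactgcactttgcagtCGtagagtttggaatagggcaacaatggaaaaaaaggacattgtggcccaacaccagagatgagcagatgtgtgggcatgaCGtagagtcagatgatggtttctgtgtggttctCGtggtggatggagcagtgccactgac
Clnk: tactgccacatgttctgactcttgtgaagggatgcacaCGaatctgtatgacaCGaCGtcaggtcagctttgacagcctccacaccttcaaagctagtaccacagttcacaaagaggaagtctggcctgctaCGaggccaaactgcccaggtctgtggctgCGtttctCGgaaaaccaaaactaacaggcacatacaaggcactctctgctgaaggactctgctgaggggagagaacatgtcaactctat
Igfbp6: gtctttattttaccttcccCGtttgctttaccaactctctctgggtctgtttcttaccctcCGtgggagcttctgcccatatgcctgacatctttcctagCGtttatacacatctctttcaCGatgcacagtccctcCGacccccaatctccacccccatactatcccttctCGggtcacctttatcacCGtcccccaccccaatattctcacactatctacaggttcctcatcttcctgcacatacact
Acacb: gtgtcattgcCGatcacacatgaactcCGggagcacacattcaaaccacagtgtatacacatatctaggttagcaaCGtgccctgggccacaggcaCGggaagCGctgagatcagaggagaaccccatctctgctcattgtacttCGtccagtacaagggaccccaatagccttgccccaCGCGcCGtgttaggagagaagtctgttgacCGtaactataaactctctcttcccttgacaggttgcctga
Prpsap2: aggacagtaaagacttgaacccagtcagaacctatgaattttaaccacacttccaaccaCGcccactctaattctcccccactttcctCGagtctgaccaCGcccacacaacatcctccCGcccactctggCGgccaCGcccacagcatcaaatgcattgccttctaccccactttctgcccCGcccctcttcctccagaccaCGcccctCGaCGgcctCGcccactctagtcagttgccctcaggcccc
The stretch of Mtmr2, a phosphatase of membrane lipids, lies at chr9:13766542-13766791 on the plus strand and holds 3 CG. Its 5mC peak stood at percentile 93.9 and its 5hmC peak at 85.9. Clnk, an adaptor of immune cells, has its stretch at chr5:38876694-38876943 on the minus strand with 6 CG, and stood at 79.2 for 5mC against 3.26 for 5hmC. Igfbp6, which binds insulin-like growth factors, has its stretch at chr15:102143936-102144185 on the plus strand with 7 CG, and stood at 10.5 for 5mC against 91.8 for 5hmC. Stretches of similar CG number thus held opposite orders of the marks. Acacb, an acetyl-CoA carboxylase, had only a 5mC peak at its start (chr5:114165268-114165517, plus strand, 10 CG, percentile 99.2). Prpsap2, a protein associated with the synthesis of nucleotide precursors, had only a 5hmC peak (chr11:61762089-61762338, minus strand, 11 CG, percentile 99.5).

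Across all windows, listed peaks were most frequent where CG was neither rare nor dense. Windows with 5 to 9 CG overlapped a 5mC peak in 3.02% of cases and a 5hmC peak in 2.49%, and those with 10 to 19 CG in 2.33% and 2.10%. In windows with 20 or more CG the shares were 0.172% and 0.586%, and in windows with 0 to 4 CG they were 0.293% and 0.765%. Toward both ends of CG number, 5hmC peaks were thus more frequent than 5mC peaks. Among windows with a peak, the CG number and the 5mC percentile had a Spearman's rho of 0.21 (n = 364 windows), and the CG number and the 5hmC percentile a rho of -0.02 (n = 413). Windows of a mark share its pull-down, library and depth, and MeDIP recovers DNA by its number of modified cytosines, so CG number and recovery cannot be told apart. The letters CANNTG, the core recognised by bHLH transcription factors and the same on both strands, occurred in 72.3% of all windows, in 83.0% of those with a 5mC peak, in 78.7% of those with a 5hmC peak and in 88.7% of those with both.

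The expression columns of the same tables, which the authors took from their earlier transcriptome study of these cell types, fit the DP label. They come from other samples, so they do not describe the cells of these pull-downs. Of 13 DP markers 11 were the nearest gene of a peak, and all 11 had their highest expression value in DP. Eomes, the T-box factor that marks basal progenitors, had 10187.6 in PP, 50496.7 in DP and 3626.3 in N. Btg2, the antiproliferative gene behind the RFP gate, had 19335.1, 38556.3 and 7483.9. The 9 PP markers in the tables were highest in PP and the 11 neuronal markers in N. These counts include Btg2 and Tubb3, whose reporters set the sort gates, so the order of these genes was favoured by the sort. DP still held 112229.9 of summed expression of the neuronal markers against 469712.7 in N and 13511.0 in PP, and in sorted bulk samples fewer cells of a type and less RNA per cell cannot be told apart. The PP markers summed to 167334.0 in DP, against 312436.4 in PP and 15744.9 in N. Summed over each list, markers of interneurons, glia, vessels and meninges were far below the DP markers in DP, although not every single gene was low. The summed values were 3615.8 for 4 interneuron genes (Gad1 at 41.9), 448.7 for 4 genes of the oligodendrocyte lineage (Sox10 at 3.2), 230.2 for 4 of microglia, 359.9 for 5 of endothelium and 498.4 for 4 of pericytes and meninges, against 209375.6 for the DP markers. The interneuron gene Dlx1 had 2166.6 in DP, above the 1688.6 of the DP marker Dll3, and Dlx2 had 1225.8. Olig1, Olig2, Kdr and Dcn were highest in DP, at 64.1, 291.6, 265.6 and 117.1. The other members of these non-DP lists were highest in PP or N. No marker in these lists was at 0 in DP, and none of 5 globin genes was in the tables. The scale of the expression values is not named in the tables, and the part of other cells in the 5mC and 5hmC levels was not tested.

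DP levels of 5mC ran from 0.73 to 12.10 on the log2 scale with a median of 5.05, and those of 5hmC from 0.09 to 10.33 with a median of 4.71. The 5mC peaks had a median width of 144 bp and the 5hmC peaks of 164 bp. Wider peaks had slightly lower 5mC levels (rho = -0.09) and higher 5hmC levels (rho = 0.21). These ranks were largely shared with the other cell types. For 5mC, the rho of DP was 0.90 with PP and 0.88 with N (n = 55077 peaks), and 88.0% and 86.1% of the peaks that were high in DP were also high there. For 5hmC, the rho was 0.84 with PP and 0.66 with N (n = 47473), and 83.3% and 74.0% of the high peaks were shared. PP and N gave a rho of 0.86 for 5mC and of 0.55 for 5hmC, so in both marks DP ranked closer to each neighbour than these did to each other. All of these points share a pull-down, a peak list and a normalization.

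Few peaks set DP apart from both other cell types. Of 55077 5mC and 47473 5hmC peaks, 100 and 48 had a DP level at least 1 log2 unit above both PP and N. At 60 and 81 the DP level was at least 1 unit below both. The same counts were not made for PP or for N. The widest gap was a 5hmC peak at chrX:143483006-143483107, upstream of Pak3, a kinase of the cytoskeleton at synapses. It read -0.05 in PP, 8.57 in DP and -0.05 in N, so PP and N were at the lowest level of their column while DP held the fifth highest 5hmC peak. The 5mC peak at the same bases read 9.52 in PP, 9.90 in DP and 7.73 in N. Near AY036118, a 5hmC peak read -0.05, 4.34 and -0.05. PP and N were thus at the floor of their columns at both peaks, and whether all replicates took part cannot be seen in the means. For 5mC the largest excess was inside Skap1, an adaptor of T cells, with 2.23 in PP, 4.74 in DP and 2.65 in N, a peak of percentile 34.8 in DP.

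Some of the highest peaks of both marks were nearest to the same genes, while others were near genes outside the top of the other mark. The highest 5mC peak lay inside Gm11400 on chromosome 11 (12.11 in PP, 12.10 in DP, 12.21 in N). It was followed by a peak near AY036118 (11.41, 11.46, 11.40), a peak in Cdk5rap2 (10.81, 10.82, 10.91) and a peak upstream of 3110070M22Rik (10.85, 10.77, 10.72). Among 5hmC peaks, Cdk5rap2 came first (10.42 in PP, 10.33 in DP, 10.10 in N), ahead of Gm11400 (9.86, 9.75, 9.66), Btg2 (8.71, 8.89, 9.14) and Chit1 (8.72, 8.66, 8.44). The genes named here by rule as highest in both marks were Gm11400, Cdk5rap2, Pak3, Chit1 and Gm11399. With the exception of Pak3, the levels of these leading peaks differed by at most 0.45 between the cell types. Copy number and input signal at these places were not analysed here, and their part in such levels was not tested.

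Where a 5mC and a 5hmC peak overlapped, the DP levels of both marks were nearly unrelated. At least 1 bp was shared by 6727 pairs, with a median overlap of 116 bp. They held 12.2% of the 5mC peaks and 14.2% of the 5hmC peaks. Across pairs the rho of both levels was -0.02 in DP, -0.05 in PP and -0.04 in N, as a description over points that share their DNA, pull-downs and base composition. The 5mC peak was high in 909 pairs (13.5%) and the 5hmC peak in 983 (14.6%). Both were high in 156 pairs (2.32%), where the product of these shares comes to 132.83 pairs. A further 148 pairs had a high 5mC peak on a 5hmC peak of the lowest 10%, and 124 had the reverse. All 4 corners were thus filled, as the scatter of both percentiles shows. Peaks in pairs were high more often than peaks that lay alone, at 13.5% against 9.51% for 5mC and 14.6% against 9.24% for 5hmC. Pairs were also richer in 5hmC peaks of the lowest 10% (16.5% against 8.93% alone), but hardly in such 5mC peaks (10.6% against 9.92%).

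**Figure D1:**
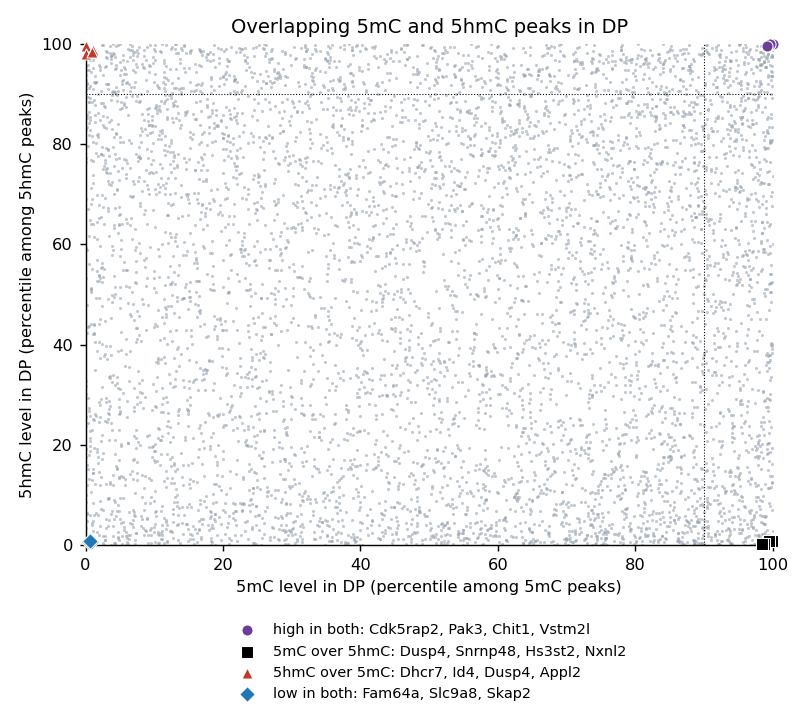
Percentile of the 5mC level (horizontal axis) against the percentile of the 5hmC level (vertical axis) in DP at 6727 pairs of overlapping peaks, each grey point a pair, with dotted lines at percentile 90 and the pairs named by rule in colour. The points fill the square without a trend (rho = -0.02), and 156 pairs lie in the upper right corner.

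The pair with the highest percentiles in both marks lay in Cdk5rap2, a centrosomal gene, at chr4:70378137-70378238 for 5mC. The limit on copy number and input signal holds for this pair as well. The pair of Pak3 described above came next. In Chit1, a chitinase gene of macrophages that neighbours Btg2, a pair read 8.07 in PP, 7.95 in DP and 7.72 in N for 5mC, and 7.93, 7.95 and 8.34 for 5hmC. In Vstm2l, 690 bp from the TSS, 5mC read 8.22, 7.67 and 5.71 while 5hmC read 7.07, 7.47 and 7.69. Vstm2l therefore was high in both marks in PP and DP, and in N at percentile 79.1 for 5mC and 99.9 for 5hmC. The median expression value in DP of the genes nearest to the 156 pairs high in both marks was 235.4, against 559.0 over all pairs, and 5.77% of them lay within 1 kb of a TSS, against 3.09%.

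Dusp4, a phosphatase of MAP kinases, held opposite pairs at a single gene. At chr8:34692748-34692862, -114493 bp from its TSS, 5mC read 8.42 in PP, 8.34 in DP and 8.03 in N while 5hmC read 1.55, 2.51 and 5.00. At chr8:34792190-34792366, -15020 bp from the TSS, 5mC read 4.06, 3.42 and 0.9995 while 5hmC read 6.74, 6.98 and 7.42. The distant site was thus among the top 5mC peaks of all cell types with a 5hmC level that was lowest in PP, and the nearer site held the marks in the opposite order. At both sites 5mC was lower and 5hmC higher in N than in PP. Pairs with 5mC far over 5hmC also lay near Snrnp48, a protein of the minor spliceosome, and near Hs3st2 and Nxnl2. Their DP percentiles ranged from 98.4 to 99.5 for 5mC and from 0.194 to 0.887 for 5hmC. In N the 5hmC percentiles of these peaks were 70.8, 47.3 and 73.9.

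Pairs with 5hmC far over 5mC lay in Dhcr7, which makes the last step of cholesterol synthesis, near Id4, an antagonist of bHLH factors, and in Appl2, an adaptor of endosomes. In Dhcr7, 5mC read 3.51 in PP, 2.77 in DP and 3.76 in N under a 5hmC peak of 7.66, 7.48 and 7.55. At Id4, -19446 bp from the TSS, 5mC read 3.79, 2.16 and 3.57 and 5hmC read 6.63, 6.73 and 6.44. In Appl2, 5mC read 4.37, 3.36 and 3.28 and 5hmC read 6.44, 6.85 and 6.69. At all 3, 5hmC was high in every cell type. In Dhcr7 and at Id4, 5mC was lowest in DP. These pairs were picked by their gap in DP, which favours a low DP level of 5mC. The pairs lowest in both marks lay near Fam64a, Slc9a8 and Skap2, and their 5hmC percentiles of 0.674, 0.543 and 0.847 in DP stood beside 65.3, 39.2 and 28.6 in N.

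Where 5hmC was in the lowest 10% in DP, its median rank was close to that in PP and apart from that in N. The 148 pairs with high 5mC on 5hmC of the lowest 10% had a median 5hmC percentile of 4.86 in PP, 3.38 in DP and 46.6 in N, and a median 5mC percentile of 95.9, 95.6 and 93.5. The 114 pairs lowest in both marks had 4.94, 3.73 and 41.7 for 5hmC. The 124 pairs with high 5hmC on 5mC of the lowest 10% had similar median 5hmC percentiles. These were 94.99 in PP, 95.5 in DP and 95.8 in N. Medians do not show whether each pair kept its rank. Over all pairs, the 5mC percentile exceeded the 5hmC percentile in 57.3% in PP, 52.3% in DP and 38.4% in N. These classes were set on DP values, so the DP medians are fixed by the choice, and the difference between PP and N was not tested. Peaks also entered the merged list through a call in some cell type, which is not named. A class that is low in DP can therefore favour peaks called in another cell type. How far the N medians follow from that filter was not tested.

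By genes, 14361 genes were nearest to a 5mC peak and 12848 to a 5hmC peak, 16293 in all, and 10916 of them had both. Genes with both marks had a median expression value of 449.75 in DP, the 3445 with 5mC only 615.4, and the 1932 with 5hmC only 307.8, with wide and overlapping quartiles (24.6 to 2298.1, 34.1 to 2188.0, and 16.7 to 2054.1). The highest peak of a gene was high in 5mC for 4097 genes (28.5%) and in 5hmC for 3373 (26.3%), and in both for 1308 genes (12.0% of those with both marks). Across the 10916 genes, the highest percentiles of both marks had a rho of 0.19. The number of peaks followed with them. Genes with many 5mC peaks had many 5hmC peaks (rho = 0.54), and a gene with more peaks had a higher highest peak (rho = 0.55 for 5mC and 0.56 for 5hmC). With the mean level over the peaks of a gene the rho was 0.01, and over 1133 genes with exactly 1 peak of each mark it was -0.00112.

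Genes high in both marks mostly had their highest peaks at separate places, as genes with both marks did in general. Of 1303 genes high in both with both highest peaks on the same chromosome, the highest 5mC and 5hmC peaks overlapped in 100 (7.67%), against 7.06% of all 10898 genes with both marks on the same chromosome. An overlapping pair that was high in both marks lay at 153 of the 1303 (11.7%), counted by the gene of its 5mC peak. The median gap between the highest peaks of the marks in the 1303 genes was 23741.5 bp. Ephb2, an ephrin receptor, had its highest 5mC peak 47066 bp from the TSS (7.64 in PP, 7.56 in DP, 7.39 in N) and its highest 5hmC peak 13131 bp from it (7.75, 7.60, 7.73). Both peaks lay inside the gene, at DP percentiles 98.96 and 99.78. Sox2, a factor of neural stem cells, had 24 peaks of 5mC and 22 of 5hmC, with a highest DP percentile of 98.3 and 95.7 at 55622 and 149674 bp downstream.

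Among genes with at least 2 peaks of each mark, those with the widest gap toward 5mC were 2310061C15Rik, Dock9, A830036E02Rik, Fam151b and Kcnh3. Dock9, an activator of the GTPase Cdc42, had a highest 5mC peak of 7.41 in PP, 7.42 in DP and 7.36 in N, and a highest 5hmC peak in DP of 3.64, 3.80 and 5.07. Kcnh3, a potassium channel, had 6.95, 7.22 and 7.01 for 5mC and 2.95, 3.93 and 4.16 for 5hmC. The widest gaps toward 5hmC were at Gm7293, Dnmt3a, Lpin2, Syt2 and Gm11224. Syt2, a calcium sensor of synaptic vesicles, read 4.54, 4.33 and 3.79 for 5mC and 7.98, 7.81 and 7.53 for 5hmC. Dnmt3a, the de novo methyltransferase, had 2 peaks of 5mC and 3 of 5hmC, all inside the gene. Its highest 5mC peak read 4.02 in PP, 3.97 in DP and 4.07 in N (DP percentile 6.02), and its highest 5hmC peak 6.02, 6.14 and 5.91 (percentile 94.9). That 5hmC peak, at chr12:3825858-3826027, overlapped the other 5mC peak, which read 3.77, 3.62 and 3.99. The highest 5hmC peak of Dnmt3a was thus high in all 3 cell types. Its highest 5mC peak stood at percentile 5.75 in PP, 6.02 in DP and 15.8 in N. The other 5hmC peaks of the gene were not high in DP, at percentiles 83.2 and 59.0.

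Of 10 DP markers with a 5mC peak 1 was high (Btg2), and of 10 with a 5hmC peak 3 were high (Btg2, Insm1 and Gadd45g), where 28.5% and 26.3% of all genes were, so the 5hmC count was near that of all genes. Their median percentile was 64.1 for 5mC and 84.6 for 5hmC, and 8 of 9 markers with both marks had the higher percentile in 5hmC. Of all 10916 genes with both marks, 47.7% had the higher percentile in 5hmC, and of the 3516 with more 5hmC than 5mC peaks 67.2%. A gene's percentile is that of its highest peak and moves with its number of peaks, and the markers held more 5hmC than 5mC peaks. Over single peaks, 1 of 35 5mC peaks (2.86%) and 11 of 58 5hmC peaks (18.97%) of these markers were high, and the high 5mC peak and 8 of the 5hmC peaks were those of Btg2, which lies in a stretch described below. Without Btg2, 3 of 47 5hmC peaks (6.38%) and none of 28 5mC peaks were high. Insm1, a zinc finger factor of basal progenitors, had a highest 5mC peak of 6.22 in PP, 5.97 in DP and 6.08 in N and a highest 5hmC peak of 6.14, 6.02 and 6.06. Gadd45g, a stress gene linked to DNA demethylation, had 4.42, 4.25 and 3.55 for 5mC and 5.83, 5.90 and 5.81 for 5hmC. Both had 5hmC in the top 10% in DP, at percentiles 93.7 and 92.3, with 5mC at 81.6 and 12.9. Nhlh1, a bHLH factor of newborn neurons, read 4.75, 4.23 and 4.17 for 5mC and 5.56, 5.54 and 4.57 for 5hmC. Eomes had 60.9 for 5mC and 85.8 for 5hmC in DP, and Neurog2, the proneural factor, a single 5hmC peak at 56.4 and none of 5mC.

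At overlapping pairs the DP markers split. Pairs were found at 7 sites in 6 of these genes, and 5 of 7 had the higher percentile in 5hmC, against 47.7% of all pairs. The pairs of Btg2, which lie in the stretch described below, were among these 5. Near Insm1, -123551 bp from the TSS, 5mC read 4.79, 4.47 and 3.97 and 5hmC 6.14, 6.02 and 6.06. Inside Eomes, 6221 bp from the TSS, 5mC read 4.18 in PP, 4.27 in DP and 3.095 in N and 5hmC read 1.65, 3.46 and 5.07. Inside Dll3, a Notch ligand, 5mC read 4.50, 5.32 and 3.32 and 5hmC read 0.99, 2.66 and 4.93. At Eomes and Dll3, the DP level of 5hmC was between those of PP and N and still in the lowest 10%.

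**Figure D2:**
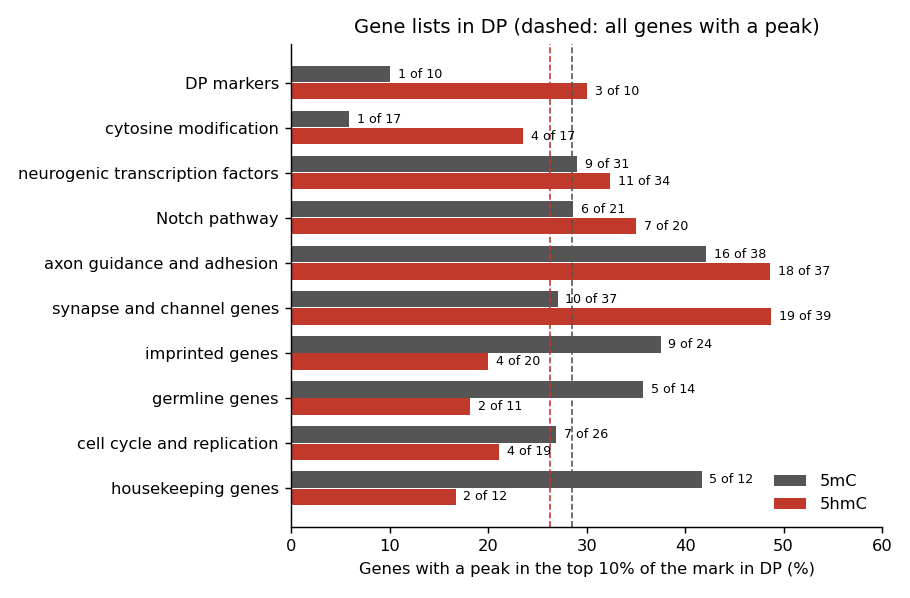
Percentage of the genes of each list with a peak in the top 10% of 5mC (grey) or 5hmC (red) in DP, with counts beside the bars and dashed lines at 28.5% for all genes with a 5mC peak and 26.3% for all genes with a 5hmC peak. Synapse and channel genes reach 19 of 39 for 5hmC and 10 of 37 for 5mC, and DP markers 1 of 10 for 5mC.

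Among neurogenic transcription factors, 9 of 31 genes were high in 5mC and 11 of 34 in 5hmC, beside 28.5% and 26.3% of all genes. Of the proneural bHLH genes, 1 of 5 was high in 5mC (Nhlh2) and 1 of 8 in 5hmC, too few genes to set against the shares of all genes. That member was Neurod6, a bHLH factor of projection neurons, whose highest 5hmC peak read 5.71 in PP, 5.98 in DP and 6.60 in N. The bHLH antagonists were high in 3 of 6 for 5mC (Id2, Id4 and Hey1) and 2 of 7 for 5hmC (Id4 and Hey1). Others of the list were factors of projection neuron identity. Emx1, a homeobox factor of the dorsal cortex, had a highest 5hmC peak of 6.45, 6.23 and 4.64 and a highest 5mC peak of 5.77, 4.43 and 1.28. The 5mC peak under its highest 5hmC peak read 4.33, 1.57 and 1.69, so DP held a 5hmC level near that of PP over a 5mC level near that of N. Bcl11b, a factor of deep-layer neurons, had 7.01, 7.02 and 6.50 for 5mC and 6.49, 5.78 and 4.77 for 5hmC. Pax6, the homeobox factor of radial glia, had 44.1 for 5mC and 67.4 for 5hmC in DP, and neither was high.

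In the Notch pathway, through which neighbouring progenitors hold each other back from differentiation, 6 of 21 genes were high in 5mC and 7 of 20 in 5hmC. Of all genes, 28.5% and 26.3% were. Of 4 receptors, Notch4 alone was high in 5mC (7.22 in PP, 7.17 in DP, 7.06 in N) and none in 5hmC. Of 5 ligands, Jag2 alone was high in 5mC (7.20, 7.33, 7.27), and none of the 3 with a 5hmC peak was high in that mark. The modifiers and regulators had 4 of 6 genes high in 5hmC (Lfng, Numb, Numbl and Dlk1). Numb, a Notch inhibitor handed down unequally in division, had 3.93, 3.99 and 3.38 for 5mC and 5.99, 5.84 and 5.95 for 5hmC. Its relative Numbl had 4.99, 4.52 and 4.99 for 5mC and 6.10, 5.91 and 5.63 for 5hmC. Lfng, a glycosyltransferase acting on Notch, was high in both marks, at DP percentiles 95.9 and 97.8. The nuclear effectors had 2 of 6 genes high in 5mC and 3 of 7 in 5hmC, Maml3 and Hey1 in both marks and Maml2 in 5hmC. These roles hold too few genes to be set against the shares of all genes or against each other.

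Genes of axon guidance and adhesion were high more often than the 28.5% and 26.3% of all genes, with 16 of 38 in 5mC and 18 of 37 in 5hmC. They also held many peaks, and over single peaks 7.88% of 241 were high in 5mC and 8.25% of 400 in 5hmC, below the 10% that defines high. Plxna1, a semaphorin receptor, had a highest 5mC peak of 6.72 in PP, 6.54 in DP and 6.51 in N and a highest 5hmC peak of 7.81, 7.82 and 7.57. Unc5d, a netrin receptor, had 7.85, 7.93 and 7.74 for 5mC, and Robo1, a Slit receptor, 7.94, 7.79 and 7.68. Cntn1, a contactin of axons, had 7.67, 7.52 and 7.41 for 5hmC. Dchs1, a large cadherin, stood at the far end, since its only 5mC peak read 3.78, 1.49 and 1.23, at percentile 0.0036 in DP. The 5hmC peak over it, at chr7:105777884-105778167, read 5.30, 6.03 and 6.46, and its highest 5hmC peak, -371 bp from the TSS, read 6.43, 6.18 and 6.03.

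Synapse and channel genes, which act after DP have become neurons, were high in 5hmC in 19 of 39 and in 5mC in 10 of 37. Over all genes the shares were 26.3% and 28.5%. The list also held many peaks, and the highest peak of a gene moves with its number of peaks. Over single peaks 10.99% of 273 were high in 5hmC, near the 10% that defines high, and 6.28% of 191 in 5mC. Of 35 genes with both marks, 23 had the higher percentile in 5hmC, against 47.7% of all genes with both marks, although the 5hmC percentile was higher in 12 of 30 of their overlapping pairs. The receptors had 8 of 13 high in 5hmC and the ion channels 7 of 13, too few genes to set against the shares of all genes. Pclo, a scaffold of the presynaptic zone, had a highest 5hmC peak of 7.01 in PP, 6.98 in DP and 6.92 in N. Cacna1a, a calcium channel, had 7.03, 6.88 and 6.52, and its highest 5mC peak read 5.03, 4.77 and 1.51. Grin2a, an NMDA receptor subunit, had 6.84, 6.84 and 6.73 for 5hmC. In 5mC the highest of the list was Kcnma1, a potassium channel, with 7.45, 7.61 and 7.55. The median expression value of the list in DP was 372.0.

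Of the genes that write, remove and read cytosine marks, 1 of 17 was high in 5mC (Mbd2) and 4 of 17 in 5hmC. Over all genes the shares were 28.5% and 26.3%, so the 5hmC count was near that of all genes. Of the Tet genes, Tet1 had no 5mC peak and a single 5hmC peak -345 bp from its TSS that read 3.89 in PP, 4.26 in DP and 3.71 in N. Tet2 had 4.82, 5.13 and 4.79 for 5mC and 6.09, 5.74 and 5.82 for 5hmC. Tet3 had 5.34, 5.42 and 5.24 for 5mC and 5.28, 5.18 and 5.54 for 5hmC. None of the Tet genes was thus high in either mark in DP, with Tet2 just outside for 5hmC at percentile 89.9. Dnmt1, the maintenance methyltransferase, stood at 79.6 for 5mC and 41.0 for 5hmC, the reverse of Dnmt3a. Besides Dnmt3a, high 5hmC was found at Idh2, which makes the cofactor of the Tet enzymes, at Gadd45g and at Mbd2, a reader of 5mC whose highest peaks lay 661852 bp (5mC) and 733715 bp (5hmC) downstream.

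Imprinted genes are expressed from a single parental allele, and germline genes are silent outside germ cells. High peaks were held by 9 of 24 imprinted genes in 5mC and by 4 of 20 in 5hmC (H19, Grb10, Dlk1 and Inpp5f). Of the germline genes, 5 of 14 were high in 5mC (Tdrd1, Tdrd9, Brdt, Slc25a31 and Spo11) and 2 of 11 in 5hmC (Dazl and Tdrd1). Both lists stood beside 28.5% of all genes for 5mC and 26.3% for 5hmC. Over single peaks, 15.7% of 89 imprinted and 16.7% of 42 germline 5mC peaks were high, against 7.25% of 69 and 7.41% of 27 for 5hmC. Housekeeping genes had 25.9% of 27 5mC peaks and 10.5% of 19 5hmC peaks high, so a larger share in 5mC was not particular to the imprinted and germline lists. Trappc9 had a highest 5mC peak of 8.62 in PP, 8.59 in DP and 8.55 in N with 5hmC at percentile 67.6. H19, a maternally expressed noncoding RNA, had 7.41, 7.15 and 7.09 for 5hmC, at -36612 bp, and a single 5mC peak of 4.51, 4.79 and 3.65. Dlk1, a paternally expressed relative of the Notch ligands, was high in both, at 98.7 and 93.4 in DP. Among germline genes, Tdrd1 of the piRNA pathway had 7.52, 7.79 and 7.85 for 5mC, and Tdrd9 had 7.59, 7.54 and 7.40 at 118 bp from its TSS. Rnf17 had overlapping peaks near its start, with 6.19, 6.24 and 6.06 for 5mC and 4.43, 3.85 and 4.25 for 5hmC. Dazl, an RNA-binding gene of germ cells, went the other way, with a highest 5hmC peak of 6.81, 7.05 and 6.88 at -54552 bp.

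Cell cycle genes were high in 7 of 26 for 5mC and 4 of 19 for 5hmC (Ccnd1, Ccne1, Cdk6 and Mki67), close to the 28.5% and 26.3% of all genes. Ccnd1, a cyclin of the first gap phase, had a highest 5hmC peak of 7.94, 7.94 and 7.72 at -159281 bp, while Cdk1, the mitotic kinase, had its highest 5mC peak at 7.54, 7.45 and 7.45. Housekeeping genes were high in 5 of 12 for 5mC (Gusb, Ppia, Gapdh, Tuba1a and Rplp0) and in 2 of 12 for 5hmC. Gusb, a lysosomal enzyme, had a 5mC peak of 8.11, 7.98 and 8.04 and no 5hmC peak, and Eef1a1, a translation factor, had a 5hmC peak inside the gene of 6.98, 6.91 and 6.61. The lists hold few genes each, and nothing in their counts is called particular to a list. All lists were chosen with earlier results of these data known.

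By distance, the share of high peaks was largest within 1 kb of a TSS and smallest beyond 100 kb in both marks. For 5mC the excess within 1 kb over 1 to 5 kb was within counting error. Within 1 kb of a TSS, 11.3% of 1649 5mC peaks and 12.3% of 1526 5hmC peaks were high, and beyond 100 kb 7.79% of 6060 and 9.03% of 8282. Between 1 and 100 kb the shares stayed between 9.95% and 10.7% for 5mC and between 9.84% and 10.6% for 5hmC. The exact binomial interval of the 5mC share within 1 kb, 9.79% to 12.9%, held the 10.7% at 1 to 5 kb. That of the 5hmC share was 10.65% to 14.0%, with its lower end near the 10.6% at 5 to 20 kb. With levels per length, 10.5% of 5mC and 11.1% of 5hmC peaks within 1 kb were high. Beyond 100 kb these shares were 7.97% and 9.71%. The marks differed more in where their peaks lay than in where the high ones lay. Peaks beyond 100 kb made up 11.003% of 5mC and 17.4% of 5hmC, and those 5 to 20 kb from a TSS 33.4% and 27.2%. Inside genes lay 40.2% of the 5mC and 36.2% of the 5hmC peaks. Peaks over a gene start were few, at 257 for 5mC with a median percentile of 59.5 and 101 for 5hmC with 50.4. Of these, 36 (14.01%) were high in 5mC and 7 (6.93%) in 5hmC, beside 10% over all peaks of each mark. Among 5hmC peaks inside genes, 10.5% were high and 11.6% in the lowest 10%, and upstream of genes 9.55% and 8.76%.

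**Figure D3:**
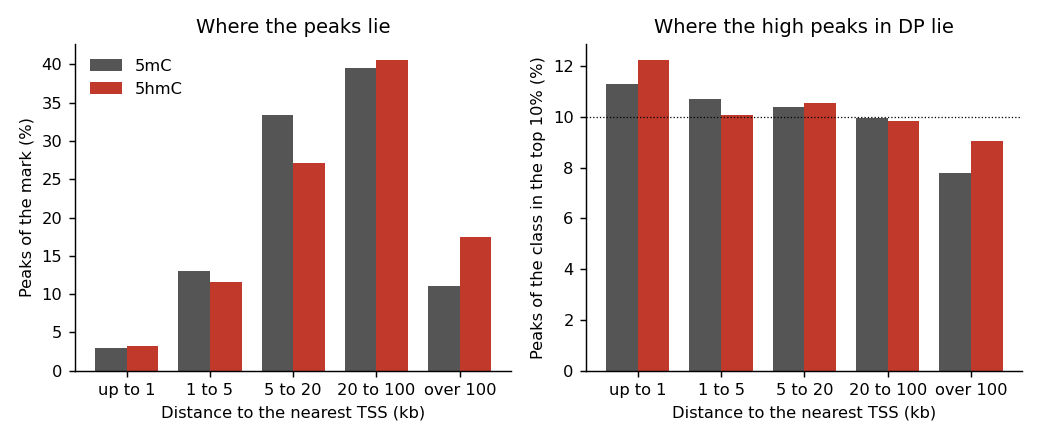
Left, percentage of all peaks of 5mC (grey) and 5hmC (red) in each class of distance to the nearest TSS; right, percentage of the peaks of each class that were in the top 10% of their mark in DP, with a dotted line at 10%. The right panel falls from 11.3% and 12.3% within 1 kb to 7.79% and 9.03% beyond 100 kb.

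The level of either mark at a gene was nearly unrelated to its expression in DP, as measured in the earlier transcriptome study. Across genes, the highest percentile and the expression value had a rho of 0.02 for 5mC (n = 14361) and -0.01 for 5hmC (n = 12848), and across peaks of 0.01 and -0.02. Over 10 groups of genes by expression, the median highest percentile stayed between 74.6 and 79.4 for 5mC and between 73.4 and 77.5 for 5hmC. In the group of lowest expression, 26.0% of genes were high in 5mC and 25.9% in 5hmC, and in the group of highest expression 28.7% and 28.8%. The tables name no scale for the expression values, so whether their order across genes also reflects transcript length was not tested. Position classes showed more. The median expression of the gene nearest to a peak within 1 kb of its TSS was 53.1 for 5mC and 218.65 for 5hmC, against 428.7 and 444.9 at 1 to 5 kb. Peaks within 1 kb of a start therefore lay at genes of lower median expression, and lower for 5mC than for 5hmC. These medians are over peaks, so a gene with several peaks in a class counts several times.

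**Figure D4:**
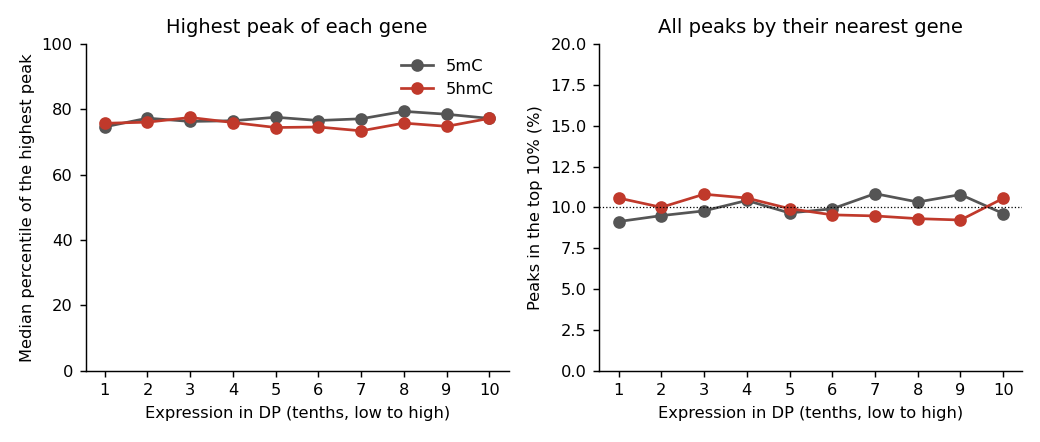
Left, median percentile of the highest 5mC (grey) and 5hmC (red) peak of each gene over 10 groups of genes from low to high expression in DP; right, percentage of all peaks in the top 10% of their mark by the expression of the nearest gene, with a dotted line at 10%. Both marks are level, between 73.4 and 79.4 on the left and between 9.13% and 10.8% on the right.

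By the deposited values, the most expressed genes with a high 5mC peak in DP were Ptprs, a receptor phosphatase of axons, Xist, the noncoding RNA of the inactive X chromosome, and Dync1h1, the heavy chain of dynein. With a high 5hmC peak they were Tubb5, a beta-tubulin, Eef1a1 and Ptprs. Ptprs had 7.26 in PP, 7.07 in DP and 6.81 in N for 5mC and 6.04, 5.95 and 5.81 for 5hmC. Tubb5 had a single peak of each mark inside the gene, at 4.58, 4.72 and 3.398 for 5mC and 5.49, 6.195 and 7.38 for 5hmC. Ptprs thus was high in both marks in DP, and Tubb5 in 5hmC alone.

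Both reporter loci carried runs of high peaks. Within 100 kb of the Btg2 TSS, 13 of 29 5mC peaks (44.8%) and 19 of 31 5hmC peaks (61.3%) were high in DP, with median percentiles of 84.2 and 93.2. At 100 to 300 kb the counts were 0 of 21 and 3 of 23, with medians of 57.9 and 32.3. Around Tubb3, 22 of 40 5mC peaks (55.0%) and 5 of 22 5hmC peaks were high within 100 kb, with medians of 92.5 and 66.9, against 8 of 43 and 1 of 10 beyond. The runs were present in every cell type. Near Btg2 the high 5mC peaks numbered 14 in PP, 13 in DP and 14 in N, and the high 5hmC peaks 13, 19 and 22. Near Tubb3 they numbered 23, 22 and 22 for 5mC and 4, 5 and 5 for 5hmC. The neighbouring gene Chit1, with an expression value of 2.2 in DP, lay in the run of Btg2. The embryos of all groups carried both reporters, copy number and input signal were not analysed here, and their part in these levels was not tested.

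**Figure D5:**
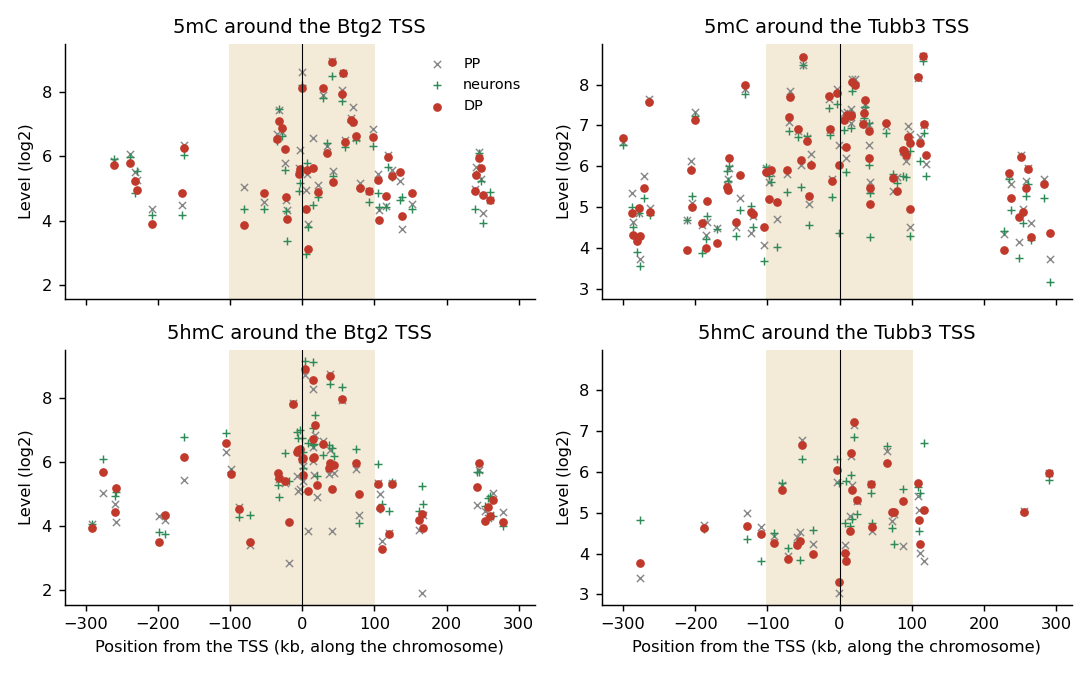
DP level (red circles) of 5mC (top) and 5hmC (bottom) on the log2 scale at peaks within 300 kb of the Btg2 and Tubb3 TSS, along the chromosome, with PP as grey crosses and neurons as green plus signs and the 100 kb on both sides shaded. Peaks above 8 cluster inside the shaded stretch of Btg2 in both marks and in all cell types.

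Within the run, 6 of 7 5mC peaks of Btg2 were highest in PP and 1 in N, and 9 of 11 5hmC peaks were highest in N, 1 in PP and 1 in DP. Of the 5mC peaks, that 254 bp from the TSS was highest (8.61 in PP, 8.13 in DP, 8.22 in N). The highest of the 5hmC peaks, -4188 bp from the TSS, read 8.71, 8.89 and 9.14. At the overlapping pair inside the gene, 5mC read 6.21, 5.596 and 5.18 and 5hmC 5.15, 6.39 and 7.003. At the pair -14728 bp from the TSS, 5mC read 6.57, 5.65 and 4.48 and 5hmC 8.26, 8.56 and 9.11. Tubb3, the neuronal tubulin, showed the 5mC side, with a highest 5mC peak of 7.33, 7.25 and 7.17 (DP percentile 97.8) and a highest 5hmC peak of 4.93, 4.56 and 4.69 (40.5). Another stretch, on chromosome 11 between 3.1 and 3.2 Mb, held Gm11400 and Gm11399, with 11 of 14 5mC and 16 of 25 5hmC peaks high in DP. Leaving out these 3 stretches left the rho at overlapping pairs at -0.02 and changed the share of pairs high in both marks from 2.32% to 2.23%.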

How the data were processed

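Cells of the E14.5 cortex were profiled by MeDIP and hMeDIP in 12 samples, 4 of them from DP. The authors aligned reads to mm10 with BWA 0.7.8-r455, called peaks with SICER 1.1, kept peaks found in replicates outside repeats, obtained levels with DiffBind and took nearest genes from HOMER 4.7. The deposited level columns hold log2 mean levels per cell type by the authors. Their expression column, a score of unnamed scale from the earlier transcriptome study, and the distance column, a score in bp, are also as deposited. The authors' fold and p-value columns, which compare cell types, were not used, and 0 columns were left unmapped.

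Repeated lines of a peak were merged (55085 lines of 5mC and 47478 of 5hmC). Levels were ranked within a mark, and Spearman's rho was computed without p-values in scipy 1.17.1, on tables read with pandas 2.3.3 and numpy 2.4.6 (python 3.11.15), with figures by matplotlib 3.10.9. Overlap took at least 1 bp. The steps were tested on simulated data. Coordinates are as deposited (mm10), and promoter windows are those of RefSeq (GRCm38.p6). No genome was used, so peaks themselves have no printed sequence.

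Genes were named by a rule: the 5 with the highest DP level in each mark and in both, the 5 with the widest gap of percentiles in each direction, 15 overlapping pairs at the extremes, the leading members of each list, a few fixed markers and enzymes, and the 3 most expressed high genes of each mark. Symbols shared by several genes were left out, and a few members that the rule would name are not reported here. Further peaks of the DP markers and the reporter loci, Skap1, members named behind counts of 5 or fewer outside this rule and the promoter stretches were chosen after their values were seen. The members and gene lists were chosen with earlier results of these data known. Alternatives were other overlaps, levels per length, autosomes only, other percentile thresholds, other summaries per gene, other distance and expression filters and, chosen after seeing the data, leaving out 3 stretches of high peaks and keeping genes with 1 peak of each mark.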

Additional observations from a re-analysis of the deposited data

How the results depend on the processing

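For 18 results, 69 alternative values were computed, and 41 kept their main value within its exact binomial 95% interval or, for a rho, within 0.05. These intervals treat peaks as independent and cover counting error only. The 28 others moved. The share of pairs high in both marks was 1.25% when ranked over overlapping peaks only, 0.907% with a top 5% and 6.79% with a top 20%, against 2.32%. The shares of genes high in 5mC, 5hmC and both were 4.34%, 5.01% and 0.348% with the mean level of a gene, 9.78%, 9.85% and 1.31% with the peak nearest to the TSS, 27.1%, 23.9% and 10.1% within 100 kb, 16.2%, 14.9% and 4.44% with a top 5%, and 10.1%, 9.09% and 1.15% for genes with 1 peak of each mark. The rho between the marks across genes was 0.013, 0.0018 and -0.0011 with the mean level, the nearest peak and 1 peak of each mark, against 0.19, so it depends on taking the highest of several peaks. With a top 5%, high peaks made up 6.004% of 5mC peaks within 1 kb and 3.56% beyond 100 kb, and 5.44% and 4.77% for 5hmC, and 86.3% of 5hmC peaks high in DP were high in PP. Per length, 9.71% of 5hmC peaks beyond 100 kb were high, and the rho of CG number and 5mC was 0.16. Most of these shares move by construction, since the threshold or the number of peaks per gene changes. No paired analysis was possible because each mark and cell type has a single mean column. Leaving out a replicate, expression per exon length and the sequence of the peaks were not run, since values per replicate, exon lengths and a genome were not used here. The depth is unknown from the tables.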

Other observations

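The X chromosome held 799 5mC peaks with a median DP percentile of 41.6, below the range of the autosomes (47.6 to 53.9), and 6.63% of them were high, where autosomes ran from 8.29% to 11.6%. Its 1009 5hmC peaks had a median percentile of 51.4, inside the range of the autosomes (46.9 to 53.3), and 8.13% were high, where autosomes ran from 7.94% to 12.5%. The X chromosome thus ranked below every autosome in 5mC but not in 5hmC. The sex of the embryos was not analysed here.

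Over 7582 windows of 200 kb with peaks of both marks, the numbers of 5mC and 5hmC peaks had a rho of 0.61. Over 3259 windows with at least 5 peaks of each mark, the median percentiles of both marks had a rho of 0.01. Both medians were at 75 or above in 8 windows, among them those of Gm11400 (99.1 for 5mC and 97.7 for 5hmC) and of Btg2 (77.5 and 92.9). Windows of a chromosome share base composition and gene density, so these values are descriptions.

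Single genes with many peaks of both marks were Zfhx3, a homeobox gene, with 53 peaks of 5mC and 37 of 5hmC, and Prickle1, a planar polarity gene, with 47 and 35. Rbfox1, a splicing factor of neurons, had 29 of 5mC and 67 of 5hmC, and its highest 5hmC peak in DP stood at percentile 99.1 beside 94.6 for 5mC. These genes were chosen after their values were seen.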
